A study of Mus musculus with 44 samples.

Results

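Methionine restriction was compared with the control diet in the hippocampus of 18-month-old mice, in 15 of the 44 libraries of a series that also holds mice of 5 and 15 months. The groups were 18M-CD, with 8 C57BL/6J mice on the diet labelled CD, and 18M-MR, with 7 C57BL/6J mice of the same age on the diet labelled MR. From the series title, MR was taken to mean methionine restriction and CD the control diet. Each group has as many mice as libraries of total RNA, per the series' design text, and the labels name no genetic change in either. The sex of the mice, the start of the diet and its methionine content are not given in the sources used here. Values are FPKM, the number of fragments scaled by transcript length and sequencing depth, for loci assembled from the reads. Of 13218 loci, the 12417 that reached 1 FPKM in 6 or more of the 15 libraries were compared as log2(FPKM + 1). Differences are given as MR minus CD on that scale, which understates the change of loci with low values.

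Methionine is an essential amino acid that cells use for protein and, through S-adenosylmethionine, for methylation. Its shortage is known to engage the amino acid response through the transcription factor ATF4 and, from the liver, the hormone FGF21. In the brain, oligodendrocytes wrap axons in myelin, a membrane rich in lipids and in a small set of abundant proteins, and maintain that membrane in adult life. Glucocorticoids, the steroid hormones of the stress response, act on the hippocampus through nuclear receptors that switch on a well-known set of genes.

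No locus passed the test at 18 months. With limma and Benjamini-Hochberg adjustment over the 12417 loci, 0 loci (0%) had an adjusted p under 0.05, and the smallest adjusted p was 0.554. Without adjustment 326 loci (2.63%) had a p under 0.05. Of these 258 were lower in MR (2.08% of all loci) and 68 were higher (0.548%). The middle of the differences lay close to 0, with a median of −0.03, a 5th percentile of −0.53 and a 95th percentile of 0.39. The 95% interval of a typical locus reached 0.54 to either side. Lower loci were 79.1% of those with an unadjusted p under 0.05, and 64.4% after quantile normalization, where 242 were lower and 134 higher. Within sequencing lane 3 alone, 1 CD library against 6 of MR, 54 such loci were lower and 132 higher (29%), and 1 lower and 14 higher loci were called. The younger ages were compared in a limma fit of all 44 libraries, which has more residual degrees of freedom (38 against 13). It called 0 loci (0%) at 5 months and 0 (0%) at 15 months, where 554 (4.46%) and 268 (2.16%) had an unadjusted p under 0.05. At 18 months that fit also called 0 loci, with 468 lower and 115 higher at an unadjusted p under 0.05.

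In none of 5 library measures did the diets differ past an exact test. FPKM summed to 239400 ± 13350 (SD, n = 8) in CD and 242700 ± 12170 (n = 7) in MR, and 637 ± 90.4 and 727 ± 142 loci were at 0. The share of FPKM in loci without a gene symbol was 6.41% ± 1.65 in CD and 7.43% ± 2.83 in MR. The smallest 2-sided exact permutation p was 0.155, for loci at 0, with an adjusted p of 0.659. Dentate granule cell genes, markers of the labelled tissue, summed to between 44.2 and 210.3 FPKM over all 15 libraries, and CA1 pyramidal cell genes to between 110.1 and 286 FPKM. Ttr, a gene of the choroid plexus next to the hippocampus, ranged from 58.5 to 3621 FPKM in CD and from 16.0 to 2619 in MR. Sequencing lane was almost the same split as diet, with 7 CD libraries on lane 2 and 1 on lane 3, against 6 MR libraries on lane 3 and 1 on lane 1. Within 18 months the diets shared a lane only through 1 CD library, CD 9, whose values stand beside the main results.

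**Figure D1:**
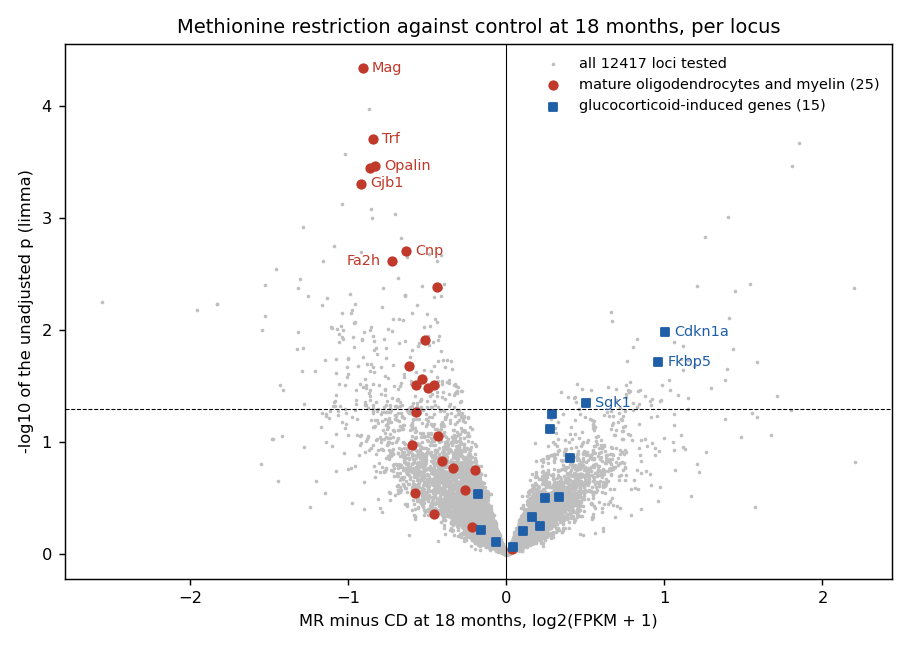
Difference between the diets (x axis, MR minus CD, log2(FPKM + 1)) against −log10 of the unadjusted p of limma (y axis) for the 12417 loci, with the myelin and glucocorticoid-induced lists marked; the dashed line is an unadjusted p of 0.05. The myelin genes lie to the left, with Mag at the top at −0.91, and Cdkn1a, Fkbp5 and Sgk1 lie to the right; no locus passed the adjusted test.

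Genes of mature oligodendrocytes and myelin were lower in MR as a group, though none passed the adjusted test. Of 25 members tested, of 26 on the list, 24 were below 0, and 14 had an unadjusted p under 0.05 with a lower value in MR. Over all loci 56.9% were below 0, and 2.08% were lower with an unadjusted p under 0.05. The median difference of the list was −0.53, against −0.03 over all loci, and single members ranged from −0.92 to 0.03. In bulk tissue a lower value can come from fewer cells of a type or from less RNA per cell, and these cannot be told apart.

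Mag (chr7:30899175-30914922 in RefSeq, build GRCm38.p6, as for the other genes given with a position), which encodes the myelin-associated glycoprotein of the membrane next to the axon, had the smallest p of all loci. Its lowest, median and highest values were 26.8, 30.7 and 59.7 FPKM in CD and 14.7, 17.5 and 22.5 in MR. Every MR library lay below every CD library. Of the 12417 loci, 2 (0.0161%) were lower in MR with no overlap, Mag and the merged locus Nek9/Tmed10, and 0 (0%) were higher. The difference of Mag was −0.91 (SE 0.17, limma adjusted p = 0.554). On lane 3, the CD library stood at 29.1 FPKM and the 6 MR libraries at 14.7 to 20.4, a difference of −0.72.

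Trf (chr9:103208876-103230286) encodes transferrin, an iron carrier that oligodendrocytes make in the brain. Its lowest, median and highest values were 75.6, 104.8 and 153.9 FPKM in CD and 37.1, 56.2 and 87.2 in MR. The groups overlapped between the lowest CD library and the 2 highest of MR. The mean was 108.7 ± 22.7 FPKM in CD (SD, n = 8) and 61.2 ± 18.4 in MR (n = 7), a difference of −0.85 (SE 0.18, limma adjusted p = 0.554). Opalin, a membrane protein of the inner loops of myelin, stood at 3.07, 5.44 and 6.85 FPKM in CD and 1.65, 2.27 and 3.77 in MR. Opalin differed by −0.83 (SE 0.19), and the 2 highest MR libraries overlapped the lowest of CD. Lane 3 alone gave −0.75 for Trf and −0.59 for Opalin.

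Gjb1 encodes a connexin, a channel protein through which oligodendrocytes couple their own membrane layers. Gjb1 stood at 6.65, 10.1 and 13.4 FPKM (lowest, median and highest) in CD and 2.38, 4.85 and 8.47 in MR. Its highest MR library was MR 2, the one on lane 1, and the other 6 lay below all of CD. The difference was −0.92 (SE 0.22), and −0.53 on lane 3.

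The promoters of 3 of these genes are shown because the genes were lower together and a promoter of each holds letters that SOX proteins bind. SOX10 is a transcription factor of the oligodendrocyte lineage. Capitals mark the letters ACAAAG or their complement CTTTGT, on either strand, in the 250 bases shown before each annotated start. The sequences are those of RefSeq, build GRCm38.p6, written 5′ to 3′ in the direction of the gene. The windows are chr7:30914923-30915172 on the minus strand for Mag, chr19:41077114-41077363 on the minus strand for Opalin and chrX:101376126-101376375 on the plus strand for Gjb1.
Mag: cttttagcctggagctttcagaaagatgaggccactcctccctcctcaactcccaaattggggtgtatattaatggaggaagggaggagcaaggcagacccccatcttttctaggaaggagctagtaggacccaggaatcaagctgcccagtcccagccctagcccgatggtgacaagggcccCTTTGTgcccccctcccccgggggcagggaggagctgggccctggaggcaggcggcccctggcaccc
Opalin: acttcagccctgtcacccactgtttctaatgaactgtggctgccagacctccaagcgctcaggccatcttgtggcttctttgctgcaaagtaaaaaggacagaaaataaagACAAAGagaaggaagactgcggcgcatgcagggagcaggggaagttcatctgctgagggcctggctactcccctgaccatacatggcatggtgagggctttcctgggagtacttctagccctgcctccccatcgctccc
Gjb1: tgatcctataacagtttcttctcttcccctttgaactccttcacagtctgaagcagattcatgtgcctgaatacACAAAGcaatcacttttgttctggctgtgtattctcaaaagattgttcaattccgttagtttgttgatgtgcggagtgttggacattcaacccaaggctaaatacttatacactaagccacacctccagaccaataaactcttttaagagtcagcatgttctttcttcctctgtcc
Counted back from the start shown, the match begins at −67 in Mag, −139 in Opalin and −176 in Gjb1. Mag has 3 annotated starts and Gjb1 has 4, and the windows shown were chosen because they hold a match. Of the other windows, 1 of Mag overlaps the one shown and holds the same site, at −126 from its own start. Another site stands in 1 other window of Gjb1 (−57), while 1 window of Mag and 2 of Gjb1 hold no match. Shares of promoters were counted over the 300 bases from 250 before to 50 after each start, on both strands. A site in overlapping windows of a gene, as in Mag, counts once for each window. Of the myelin list 18 of 25 genes had an entry, with 27 promoters, and 9 of these (33.3%) held the letters, against 18.7% of 32851 mouse promoters. The letters CTGGNAC, with any base at N, include those that the oligodendrocyte factor MYRF binds, but not every match need be such a site. They were in 11 of the 27 (40.7%), against 19.3% of all. Both motifs were chosen with the values of these genes known, and a match is a description of the sequence only.

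**Figure D2:**
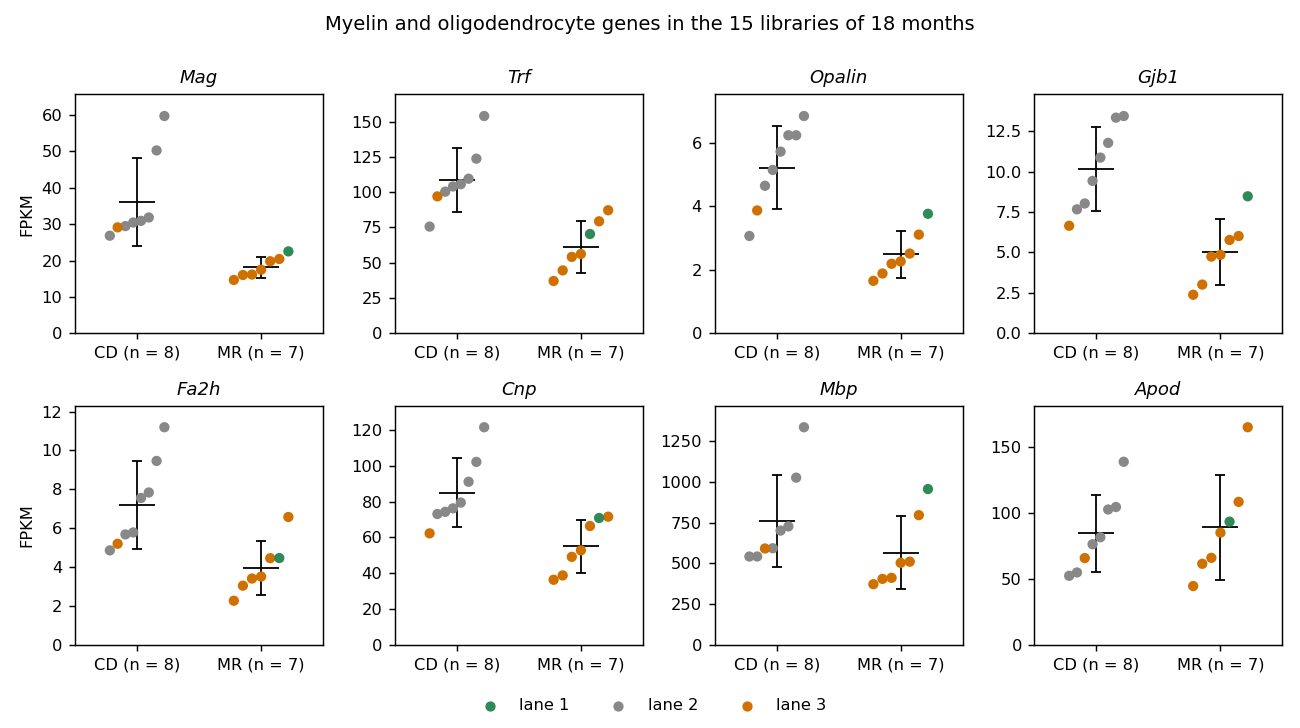
FPKM of 8 genes of the myelin list in each library (points, coloured by lane), with the mean (line) and SD (bar) of the 8 CD and 7 MR libraries. Mag does not overlap between the diets, with MR at 14.7 to 22.5 FPKM and CD at 26.8 to 59.7, while the values of Apod are mixed between them.

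Enzymes and structural genes of myelin showed smaller differences. Cnp, an enzyme of the cytoplasmic channels of myelin, stood at 62.2 to 121.6 FPKM in CD and 36.2 to 71.5 in MR (−0.63, SE 0.17). Fa2h, which hydroxylates the fatty acids of myelin sphingolipids, was at 7.19 ± 2.25 FPKM in CD (SD, n = 8) and 3.95 ± 1.39 in MR (n = 7), a difference of −0.73 (SE 0.21). Values for both overlapped between the groups. Cmtm5 differed by −0.44, the tetraspanin gene Tspan2 by −0.51 and Ermn, a cytoskeletal protein of oligodendrocytes, by −0.62. Mbp, the myelin basic protein, had 757 ± 283 FPKM in CD and 564 ± 224 in MR, a difference of −0.44 with an unadjusted limma p of 0.088. Mbp overlapped widely, from 541 to 1336 FPKM in CD and from 371 to 956 in MR.

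Apod, a lipid carrier made by oligodendrocytes and other glia, did not follow the rest of the list. Its mean was 84.4 ± 29.3 FPKM in CD and 88.9 ± 39.7 in MR, a difference of 0.03 whose sign turned with the library left out. Mog, a protein of the outermost myelin layer, stands on 3 loci that can share reads. The locus tested was listed at 0 in 4 libraries, CD 1, CD 9, MR 5 and MR 8. Summed over its 3 loci, Mog was at 1.86, 9.23 and 19.5 FPKM (lowest, median and highest) in CD and 2.62, 4.76 and 10.6 in MR, a difference of −0.64 with an unadjusted limma p of 0.0942.

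Library by library, the myelin list did not part the diets cleanly. Relative to the CD mean, the median over the 25 members was −1.03 in MR 7, −0.93 in MR 8 and −0.76 in MR 5. It was −0.46 in MR 6 and −0.41 in MR 1, but −0.10 in MR 2 and −0.07 in MR 4. Within CD it ran from −0.32 in CD 9 to 0.58 in CD 7, so the lowest CD library lay below 2 of the 7 MR libraries. Summed FPKM of the list overlapped as well, with 1517 to 3384 in CD and 898 to 2128 in MR.

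The CD library lowest in myelin genes, CD 9, was also the one on lane 3, with 24 of 25 members below the CD mean. Against the 6 MR libraries of that lane, CD 9 was above their median for 20 of 25 members (80%), where it was above for 49.1% of all loci. It was above all 6 for 6 members (24%), against 10.6% of all loci. With lane as a factor, a fit that takes the diet difference from CD 9 alone, the median of the list was −0.26 and 0 members had an unadjusted p under 0.05. On lane 3, 7 of the other lists had a lower median, among them CA2 and CA3 pyramidal cells (−0.48), methylation (−0.44), amino acid transporters (−0.37) and glutamate receptors (−0.35), and CD 9 was above the MR median for 82.4% of amino acid transporters and 90% of CA2 and CA3 genes. The myelin list did not stand apart there. The part of lane in the difference was not tested beyond these values. Without MR 7 the count of members with an unadjusted p under 0.05 was 9 in place of 14, and the median lay between −0.61 and −0.43 whichever library was left out.

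At the younger ages the same genes lay closer together between the diets. The median of the 25 members was −0.11 at 5 months and −0.09 at 15 months. In the fit of all 44 libraries 0 members were lower at an unadjusted p under 0.05 at either age. At 18 months 24 of the 25 had a lower difference than at 5 months and 22 a lower one than at 15 months. The list lay below 0 at the younger ages as well, for 21 of 25 members at 5 months and 18 of 25 at 15 months, where 54% and 47.9% of all loci were below 0. A limma test of the change in the diet difference with age called none of them. Mag was among the members above 0 at 5 months. For Mag the difference was 0.32 at 5 months and −0.02 at 15 months, and the change from 5 to 18 months was −1.23 (SE 0.36, limma adjusted p = 0.623). Unadjusted, 4 members had a p under 0.05 for a lower difference than at 5 months (4.91% of all loci) and 8 for one lower than at 15 months (1.63% of all loci).

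**Figure D3:**
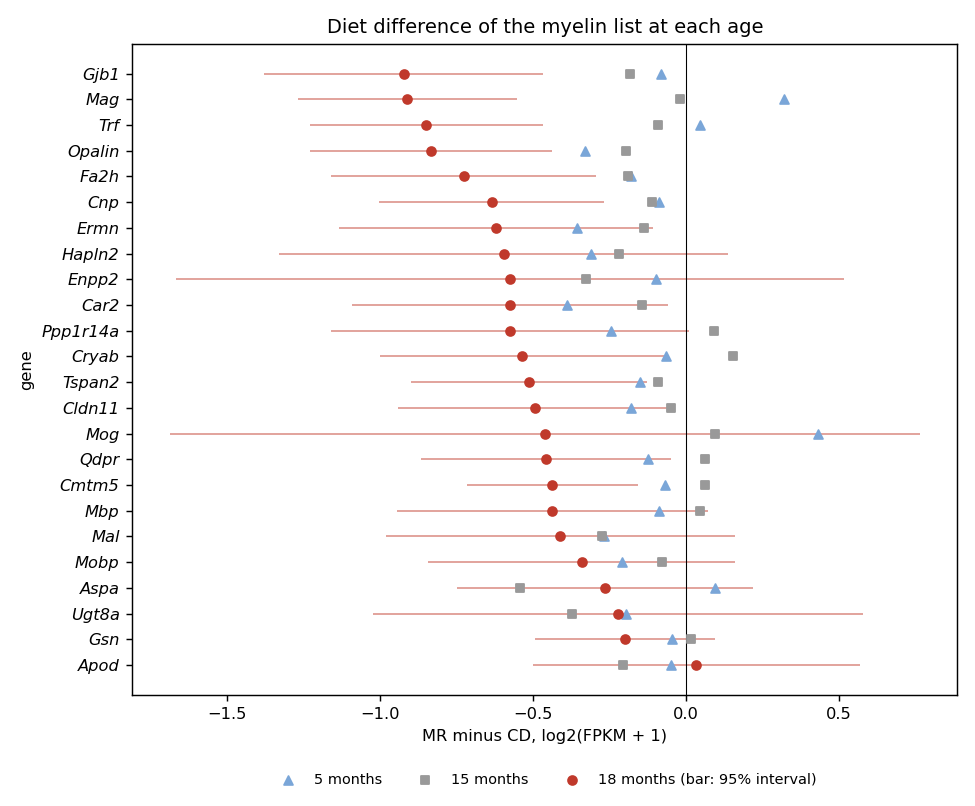
Diet difference (MR minus CD, log2(FPKM + 1)) of 24 genes of the myelin list at 5, 15 and 18 months, ordered by the value at 18 months, with its 95% interval as a bar. At 18 months 23 of these 24 genes lie left of 0, and 13 intervals lie wholly below it; 21 genes have their lowest value at 18 months.

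Genes of the oligodendrocyte precursor list, which also holds factors of the whole lineage, were lower too. Of 9 tested, 8 were below 0, with a median of −0.42, and 2 had an unadjusted p under 0.05, both lower (2.08% of all loci). Olig1 and Olig2 encode transcription factors of the whole lineage. Olig1 averaged 48.0 ± 6.13 FPKM in CD and 35.8 ± 11.8 in MR, a difference of −0.46 (SE 0.17). Olig2 averaged 10.1 ± 1.65 and 7.44 ± 1.95 FPKM, a difference of −0.42 (SE 0.15). For each, 6 of 7 MR libraries lay below the CD mean and the groups overlapped. Sox10 differed by −0.49 and Bcas1, a marker of newly formed oligodendrocytes, by −0.75, with unadjusted limma p values of 0.0824 and 0.0724. On lane 3 the median of this list was −0.19, and there Sox10 differed by 0.28.

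Of the 10 named lower genes with the smallest p, 5 were on the myelin list. Among the others was Pllp, whose product plasmolipin is a proteolipid of myelin, at 22.1 to 42.5 FPKM in CD and 10.6 to 26.7 in MR (−0.87, SE 0.17, limma adjusted p = 0.554). MR 1 alone reached into the CD range of Pllp. Lpl (chr8:68880555-68906932), the lipase that frees fatty acids from lipoproteins, was at 3.45, 9.13 and 11.97 FPKM (lowest, median and highest) in CD and 2.45, 3.13 and 5.62 in MR. Apart from CD 1, all CD libraries of Lpl lay above all MR libraries, and it differed by −1.02 (SE 0.23, limma adjusted p = 0.554). Tmem63a, an ion channel opened by membrane stretch, differed by −1.04, Tmem88b by −0.86 and Erbb2ip, which encodes the scaffold Erbin, by −0.70. None of these passed the adjusted test.

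Higher genes were fewer and rested in part on loci that are harder to read. Znrd1, a subunit of RNA polymerase I, and Pfdn6, a subunit of the chaperone prefoldin, had differences of 1.85 and 2.20 at the locus with the smallest p. Each symbol stands on 4 loci between which reads can be split, and at another locus the difference was −0.60 for Znrd1 and −0.16 for Pfdn6. Summed over the 4 loci, Znrd1 was at 9.64 to 16.4 FPKM in CD and 10.3 to 18.5 in MR, a difference of 0.11. Pfdn6 was at 36.8 to 55.3 FPKM in CD and 39.8 to 64.7 in MR, a difference of 0.18. The sums overlapped over most of their range. They were taken after the values were seen.

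Mef2c (chr13:83504017-83667079), a transcription factor of neurons and microglia, stands on 1 locus. Its lowest, median and highest values were 0.702, 3.34 and 4.19 FPKM in CD and 3.95, 7.42 and 22.3 in MR, a difference of 1.26 (SE 0.33). Of its MR libraries the lowest lay within the CD range and the other 6 above it, and lane 3 gave 0.59. Rprm, which p53 induces and which slows the cell cycle, was at 3.39 to 10.5 FPKM in CD and 8.48 to 18.2 in MR (0.66, SE 0.22), with 0.48 on lane 3. Fam126a, whose product hyccin helps place a lipid kinase at the cell membrane, was at most 0.0704 FPKM in 6 CD libraries and at 2.95 and 2.79 in CD 3 and CD 9. All MR libraries of Fam126a lay between 1.91 and 3.37 FPKM, a difference of 1.40 that came to −0.03 on lane 3. Zfp260 (1.54), Pdpr (1.41) and Bclaf1 (0.67) were higher by the log2 differences given, as were the merged loci Eef1akmt1/Zdhhc20 (1.21) and Gm17066/Rbm26 (1.45). None passed the adjusted test.

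Glucocorticoid-induced genes were higher in MR as a group, again with no member past the adjusted test. Of 15 tested, of 21 on the list, 12 were above 0, where 56.9% of all loci were below it. Of the 15, 3 had an unadjusted p under 0.05 with a higher value in MR, as had 0.548% of all loci. The median difference was 0.25, the highest of the 46 lists, and lay above 0 under every alternative run, but it was 0.14 without MR 4. At 5 and 15 months it was 0.07 and 0.02. Summed FPKM of the list were 721, 831 and 1140 (lowest, median and highest) in CD and 843, 1078 and 1252 in MR, with wide overlap.

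Sgk1, a kinase gene induced by glucocorticoids, was at 5.64, 10.2 and 19.4 FPKM in CD and 10.6, 13.8 and 24.9 in MR. The groups overlapped, and the difference was 0.50 (SE 0.23). Fkbp5, a chaperone that dampens the glucocorticoid receptor, was at 0.207, 0.805 and 5.12 FPKM in CD and 0.944, 3.79 and 7.03 in MR. Values of Fkbp5 were mixed, with CD 3, CD 6 and CD 7 within the MR range, and the difference was 0.96 (SE 0.37). Cdkn1a (chr17:29090979-29100722), the cell cycle inhibitor p21, was at 0, 4.16 and 5.28 FPKM in CD and 4.54, 6.95 and 12.1 in MR. The 5 highest MR libraries of Cdkn1a lay above all of CD, and the difference was 1.004 (SE 0.35). Both symbols stand on 2 loci, and their sums over the loci gave 0.999 for Fkbp5 and 1.14 for Cdkn1a. Cdkn1a is also on the list of cell cycle arrest, p53 and senescence, where 8 of 14 were lower and the median was −0.06. MR 4 and MR 8, the libraries that also stood high in Lcn2, had the highest values of Sgk1. On lane 3 the differences were 0.30 for Sgk1, 1.299 for Fkbp5 and 0.72 for Cdkn1a.

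Mt1 and Mt2 encode metallothioneins, small metal-binding proteins that glucocorticoids also induce. Mt2 averaged 231 ± 38.4 FPKM in CD (SD, n = 8) and 285 ± 60.9 in MR (n = 7), a difference of 0.29 with an unadjusted limma p of 0.0558. Mt1 averaged 531 ± 95.2 and 643 ± 109.8 FPKM, a difference of 0.28. On lane 3 the median of the list was 0.32, and CD 9 lay below all 6 MR libraries for 4 of the 15 members (26.7%), against 6.83% of all loci. Higher medians on that lane stood in 4 of the other lists, ribosomal proteins (0.32), thalamus, habenula and striatum (0.44), meninges (0.47) and choroid plexus (0.49), and CD 9 lay below all 6 MR libraries for 45.6% of ribosomal proteins. The glucocorticoid-induced list was therefore not set apart on lane 3. Haemoglobin transcripts, a sign of blood in the tissue, were at 267 ± 77.7 FPKM in CD and 396 ± 240.1 in MR (2-sided exact permutation p = 0.177), and their part in these values was not tested.

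**Figure D4:**
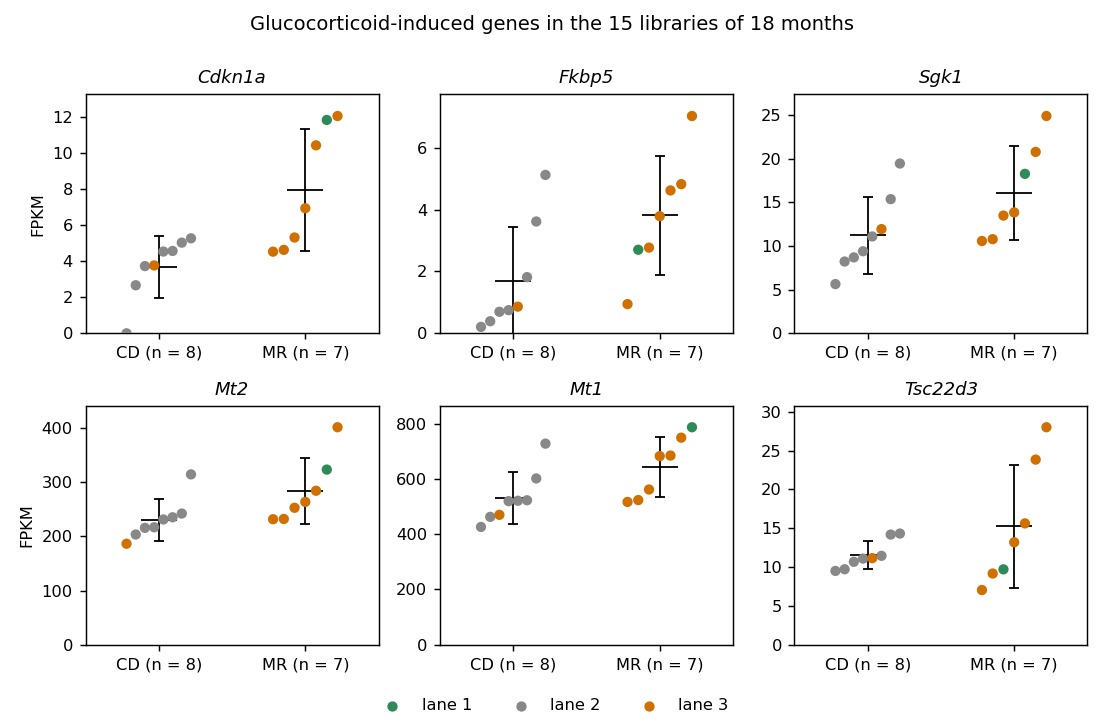
FPKM of 6 glucocorticoid-induced genes in each library (points, coloured by lane), with the mean (line) and SD (bar) of the 8 CD and 7 MR libraries. MR means lie above CD means for all 6 genes, with overlapping libraries: Sgk1 is at 5.64 to 19.4 FPKM in CD and 10.6 to 24.9 in MR.

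The pathways closest to methionine supply had medians from −0.11 to −0.01 and no member past the test. Of 14 genes of the methionine cycle and transsulfuration tested, 8 were lower and 6 higher, 0 had an unadjusted p under 0.05, and the median was −0.01. Adi1 and Enoph1, enzymes of the pathway that salvages methionine, differed by −0.27 and −0.54, and Csad, an enzyme of taurine synthesis, by 0.37. Enoph1 was uneven within MR, at 3.61, 6.54 and 8.04 FPKM in MR 2, MR 7 and MR 4 and between 15.5 and 24.7 in the other 4, against 12.9 to 23.3 in CD. Mat2a, which makes S-adenosylmethionine, differed by −0.25 at the locus tested and by −0.40 summed over its 2 loci. Of 6 folate and serine genes, 5 were lower, with a median of −0.11. The lowest was Shmt2, a mitochondrial enzyme that moves carbon from serine to folate, with −0.60. Shmt2 was at 4.55 to 7.17 FPKM in CD and 0.365 to 7.49 in MR. Methyltransferases and other genes of protein, DNA and histone methylation had a median of −0.07. Below 0 were 14 of 17, against 56.9% of all loci, and 0 had an unadjusted p under 0.05.

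The targets of ATF4 were spread to both sides of 0. Of 24 tested, 14 were lower and 10 higher with a median of −0.05, and 0 had an unadjusted p under 0.05. Atf5, itself a transcription factor of this response, differed by −0.30, Pck2, which makes phosphoenolpyruvate in mitochondria, by 0.36 and Phgdh, the first enzyme of serine synthesis, by −0.13. Fgf21, Klb and Fgfr4 were not analysed here. The other receptors of fibroblast growth factors differed by −0.25 for Fgfr1, −0.40 for Fgfr2 and 0.01 for Fgfr3, none with an unadjusted p under 0.05. Over the receptors and response genes of this family 15 of 16 were below 0, as were 56.9% of all loci. Their median was −0.16, or −0.26 without MR 4 and −0.049 without the libraries over 8% of FPKM in loci without a symbol. A single member, Frs2, the adaptor that carries the receptor signal, was lower with an unadjusted p under 0.05 (−0.36), against 2.08% of all loci.

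Transport, protein folding and lysosomal genes leaned to lower values. Over all loci 56.9% were below 0, and 2.08% were lower with an unadjusted p under 0.05. Among 17 amino acid transporters 14 were lower, with a median of −0.16, and 1 had an unadjusted p under 0.05. This was Slc38a3, a glutamine transporter, at 8.36, 11.6 and 13.3 FPKM in CD and 5.55, 7.80 and 9.89 in MR. Of the CD libraries of Slc38a3, CD 6 alone lay within the MR range, and the difference was −0.49 (SE 0.14, limma unadjusted p = 0.00206). Slc7a10, a carrier of small neutral amino acids, differed by −0.34. In the unfolded protein and heat shock response 23 of 26 were lower (median −0.18) and 2 had an unadjusted p under 0.05. These were Cryab, a small heat shock protein that is also on the myelin list, with −0.53, and Calr, the calcium-binding chaperone calreticulin, with −0.32. Pdia6, which forms disulfide bonds, differed by −0.33. In autophagy and lysosome 27 of 29 were lower (median −0.12) with 0 at an unadjusted p under 0.05. Without the libraries over 8% of FPKM in loci without a symbol, CD 8, MR 1, MR 2 and MR 7, the medians were 0.0094 for amino acid transporters, 0.0085 for the unfolded protein response, −0.02 for autophagy and lysosome, and −0.55 for the myelin list.

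Lipid genes outside the myelin list leaned the same way. In fatty acid synthesis, oxidation and ketone use 19 of 24 were lower, with a median of −0.13, where 56.9% of all loci were below 0. In this list 1 member was lower with an unadjusted p under 0.05, against 2.08% of all loci. Cpt1a, which brings fatty acids into mitochondria, was listed at 0 in MR 4 and stood at 1.36 to 3.46 FPKM in the other MR libraries and at 2.79 to 3.43 in CD (−0.58). Fasn and Scd2, enzymes that make and desaturate fatty acids, differed by −0.50 and −0.31. Cholesterol synthesis had 14 of 17 below 0, a median of −0.09 and 0 with an unadjusted p under 0.05. Without the libraries over 8% the medians were 0.0033 for the fatty acid list and −0.04 for cholesterol synthesis, and without MR 2 alone the latter was 0.0084.

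For other glia and vessels the medians lay nearer to 0. Astrocyte markers had a median of −0.11, with 13 of 17 below 0, and microglial markers one of −0.11, with 11 of 15. Without the libraries over 8% these medians were −0.0041 and −0.039. Neither list had a member with an unadjusted p under 0.05. Of 8 reactive astrocyte genes 4 were lower and 4 higher, with a median of −0.0095, or 0.17 without the libraries over 8%. Among the lower ones 2 had an unadjusted p under 0.05 (2.08% of all loci). These were Gfap, the intermediate filament of astrocytes, at 72.8 ± 11.5 FPKM in CD and 58.5 ± 14.3 in MR (−0.33), and H2-D1, an MHC class I gene, with −0.56, or −0.37 summed over its 3 loci. Lcn2, an iron-binding protein of inflammation, was at 0.261 to 2.67 FPKM in CD, and in MR at 47.4 in MR 4, 12.2 in MR 8 and 0.325 to 3.81 in the other 5. Disease-associated microglia genes had a median of −0.17, or −0.099 without those libraries, with 11 of 14 below 0, and Lpl, described above, was their one member with an unadjusted p under 0.05. Pltp, a phospholipid carrier of vessels, differed by −0.49, with 7 of 8 endothelial genes below 0. Kcnj10, the potassium channel of astrocytes and oligodendrocytes, differed by −0.41.

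Lists of synaptic genes held single members with larger differences. Of 29 genes of synaptic vesicle release 20 were lower and 9 higher, with a median of −0.08 and an unadjusted p under 0.05 for 1 lower gene (2.08% of all loci) and 2 higher ones (0.548%). Cplx2, a complexin that clamps vesicle fusion, had separate levels, at 17.9 to 30.2 FPKM in 5 CD libraries and MR 1 and at 111.3 to 249.5 in the other 9 libraries. Its difference of 1.29 followed how many libraries of each group stood on either level, 3 of 8 in CD and 6 of 7 in MR on the upper. Rims2, a scaffold of the release site, differed by 0.76, and Sypl, a synaptophysin relative, by −0.72. Zdhhc2, an enzyme that palmitoylates postsynaptic proteins, is on the list of CA1 pyramidal cells and not on a synaptic one. It was under 0.1 FPKM in 4 CD libraries, at 2.32 to 5.76 in the other 4 and at 1.90 to 5.45 in MR (1.12). The CA1 list had 5 members lower and 6 higher, with a median of 0.08, or −0.00018 on lane 3. In the GABA list Slc12a2, which loads cells with chloride, differed by −0.51 and the receptor subunit gene Gabrb1 by 0.55. Glutamate receptors and their scaffold (31 tested, median 0.01), immediate early genes (23 tested, median 0.02) and adult neurogenesis (9 tested, median 0.05) lay near 0, with 0 members at an unadjusted p under 0.05. So did the large sets of ribosomal proteins (68 tested, median 0.02) and nuclear subunits of oxidative phosphorylation (72 tested, median 0.00). On lane 3 these medians were farther from 0, at −0.35 for glutamate receptors, 0.32 for ribosomal proteins and 0.24 for oxidative phosphorylation.

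**Figure D5:**
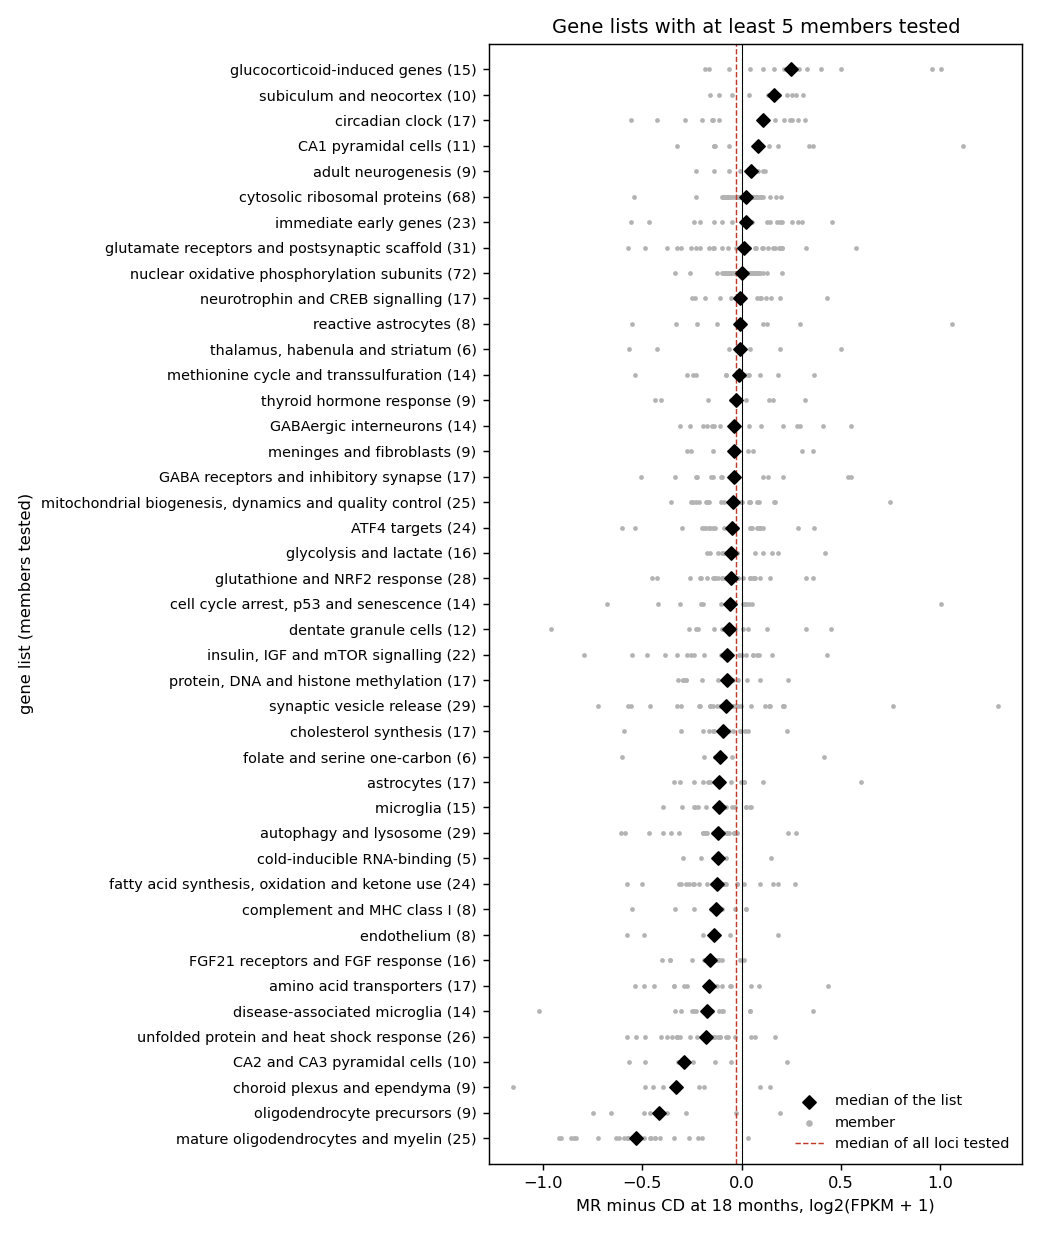
MR minus CD at 18 months (log2(FPKM + 1), x axis) for each member (grey points) and the median (black diamonds) of the gene lists with at least 5 members tested, in order of the median; the dashed line is the median of all loci. Myelin genes lie lowest at −0.53, oligodendrocyte precursors next at −0.42, and glucocorticoid-induced genes highest at 0.25.

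Whether the diet difference at 18 months differed from that at the younger ages was tested over all loci. Diet and lane were linked to a differing degree at each age, so these tests compare lanes as well. Against 15 months 0 loci (0%) were called, and 291 had an unadjusted p under 0.05. Against 5 months 1 locus (0.00805%) was called, 1 of 3 loci that carry the symbol of the tubulin gene Tubb5 (2.48, SE 0.46, limma adjusted p = 0.0333). That locus stood at 56.8 to 64.9 FPKM in 5 of 6 libraries of 5M-CD and at 8.91 in the sixth, and at 11.0 to 17.7 in 5M-MR. At 18 months it was at 6.97 to 9.97 FPKM in CD, and in MR at 56.2 in MR 4, 48.6 in MR 8 and 6.15 to 11.8 in the other 5. Summed over the 3 loci of Tubb5 the change with age was 1.06, with an adjusted p of 0.557.

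Loci with a small p at 18 months were set beside the younger ages. Of the 258 lower loci 119 were below 0 at 5 months and 165 at 15 months, where 54% and 47.9% of all loci were below 0. Of the 68 higher loci 27 were above 0 at 5 months and 31 at 15 months. With an unadjusted p under 0.05 at both ages, 4 loci had the same sign at 18 and 5 months and 17 the opposite sign, and for 18 and 15 months there were 10 of each. Mef2c was among those of opposite sign at both younger ages. The comparisons at the 3 ages share no library. Between 15 and 5 months in CD, libraries outside the comparison at 18 months, 36 loci (0.29%) were called, 9 higher and 27 lower at 15 months. Of these CD libraries, 5 of 6 at 5 months were on lane 1 and all 8 at 15 months on lanes 3 and 4, so age and lane cannot be told apart. At 18 months the diet difference was below 0 for 6 of the 9 (median −0.11), where 56.9% of all loci were below 0. It was above 0 for 21 of the 27 (median 0.19). None of the 36 passed the test.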

How the data were processed

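Hippocampal total RNA of 15 mice of 18 months, 8 on CD and 7 on MR, was compared, with the 29 libraries of 5 and 15 months for the tests across ages. The deposited values are FPKM per assembled locus, computed by the authors with Trimmomatic 0.38, HISAT2 and StringTie 1.3.4d on GRCm38.p6, per the submitters' processing notes. The annotation and the choice of loci are not given in the sources used here. FPKM hold no read totals, so the depth per library is unknown and no counting error could be given.

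The filter asked for 1 FPKM in 6 or more of the 15 libraries and left 12417 of 13218 loci, whose log2(FPKM + 1) was compared with limma 3.58.1 (R 4.3.3), 2-sided, with a trend in the variance and Benjamini-Hochberg adjustment over all loci at 0.05. Changes of the diet difference with age were fitted on all 44 libraries with 1 mean for each of the 6 groups. The code was tested on simulated data. Symbols merged in one locus are joined by a slash and left out of the gene lists, and in those lists a symbol on several loci is taken at its locus with the highest mean. Library measures were compared with exact permutation tests. Sequencing lane is taken from the sample descriptions. Gene lists, members and motifs were chosen with earlier results of these data known. The genes named are the 10 with the smallest p in each direction, since none passed, up to 4 of each list with the smallest p, the receptors of fibroblast growth factors, and loci called in the tests across ages. Some list members are counted but not reported by name here. Further members are named as examples and were chosen after their values were seen. Mice of both diets that share a number were not treated as pairs, except in the replicate block. Alternatives were another pseudocount, other filters and scalings, library weights, lane, the share of FPKM without a symbol, all 44 libraries, the replicate block, each library left out and, added after seeing the data, FPKM summed over the loci of one symbol.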

Additional observations from a re-analysis of the deposited data

Results flagged for a closer look

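Within the 162 groups of values examined, 11 held a library far from the others by Dixon's ratio, where chance gives about 1 in 20. Ratios of genes were taken on log2(FPKM + 1), while FPKM are printed beside them. Those of the library measures, here Ttr, were taken on the plain values. Cdkn1a was at 0.0 FPKM in CD 6 against 2.67 in the next library (ratio 0.708), and Cpt1a at 0.0 FPKM in MR 4 against 1.36 (0.575). Cplx2 was at 25.2 FPKM in MR 1 against 111 in the next MR library (0.645), Fasn at 2.21 in MR 1 against 7.58 (0.619), and Mgst3, a microsomal glutathione transferase, at 163 in MR 1 against 100.1 (0.575). Rims2 was at 5.02 FPKM in MR 4 against 3.16 (0.623). Eef1akmt1/Zdhhc20 was at 7.48 FPKM in CD 1 against 2.76 (0.64). Gm17066/Rbm26 was at 5.09 FPKM in CD 8 against 0.779 (0.681) and at 3.7e-05 in MR 8 against 2.57 (0.724). Ttr was at 3620 FPKM in CD 7 against 1200 (0.68) and at 2620 in MR 6 against 1010 (0.618).

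The diet difference of 1 Tubb5 locus at 18 months differed from that at 5 months by 2.48, by the limma test of the change with age. The 5 CD libraries high at 5 months were all on lane 1, while the one at 8.91 FPKM was on lane 4. Other libraries of lane 1 were low, at 11.0 FPKM in 5M-MR 2, 17.7 in 5M-MR 4 and 11.8 in 18M-MR 2. At 18 months the high libraries, MR 4 (56.2) and MR 8 (48.6), were on lane 3, as was MR 6 at 6.15. The part of lane in this value was not tested.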

How the results depend on the processing

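The count of loci called at 18 months was 14 with lane as a factor, 15 within lane 3 and 2 with all 44 libraries and lane as a factor, and 0 under every other alternative, the replicate block included. Against 5 months the count of 1 became 21 with library weights, 3 with lane, 4 with the share of FPKM without a symbol as covariate, 2 without libraries over 8% of that share, 0 with the loci of one symbol summed, and 0 to 2 with 1 library left out. Against 15 months it became 1 with lane and 12 with that share as covariate. The number of myelin genes with an unadjusted p under 0.05 was 0 with lane, 1 within lane 3, 4 with all 44 libraries and lane, and 9 to 16 with 1 library left out. Summed FPKM differed by −1385 between medians, and by −648.6 to 6319 with 1 library left out, and Ttr by −565 to 180.0 FPKM. The cause was not tested in any of these.

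All 76 genes followed kept their direction with a pseudocount of 0.1, no filter, both other scalings, the share as covariate, all 44 libraries or summed loci. With lane as a factor and within lane 3, 5 turned: Fam126a (−0.033), Fgfr3 (−0.15), Mog (1.49), Sox10 (0.28) and Ttr (1.43). With all 44 libraries and lane, Fgfr3 was at −0.051, Mog at 0.89 and Sox10 at 0.11. Fgfr3 was at −0.13 with library weights and −0.051 with the replicate block, Apod at −0.18 with the block, and Ttr at 0.19 without libraries over 8%. With 1 library left out Apod ran from −0.13 to 0.18 and Fgfr3 from −0.11 to 0.17. The same replicate numbers correlated from −0.45 to 0.11 between the diets. Such correlations cannot exclude a pairing, and none was assumed in the main test. Groups of 8 and 7 mice left intervals of 0.54 to either side at a typical locus.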

Other observations

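Genes of the circadian clock had a median difference of 0.11 at 18 months, with 10 of 17 above 0, and that median turned below 0 in each fit with lane as a factor, within lane 3 and without CD 7. Markers of CA2 and CA3 pyramidal cells had a median of −0.29, with 9 of 10 below 0, though it turned without the libraries over 8% of FPKM in loci without a symbol, and markers of the subiculum and neocortex one of 0.16, with 7 of 10 above 0. Choroid plexus and ependyma genes had a median of −0.33, with 7 of 9 below 0, but 0.49 within lane 3, −0.024 without CD 7 and 0.11 without the libraries over 8%, and their summed FPKM ran from 69.4 to 3716 in CD and from 24.5 to 2671 in MR. All 4 interferon response genes tested were below 0, with a median of −0.25, or −0.031 without the libraries over 8%. None of these genes passed the adjusted test.

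Promoter letters of other lists were counted in the same way, with the values of these genes known. The ER stress element was in 7 of 23 promoters of the unfolded protein response list (30.4%), against 0.119% of all promoters, among them those of Calr, Hspa5 and Pdia6. The letters TGATGNAA, which ATF4 and its partners bind, were in 7 of 26 promoters of ATF4 targets (26.9%), against 3.97% of all. Both lists hold genes known for these elements, so the counts describe the lists.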
